A study of Homo sapiens with 8 samples.

Results

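LIN28B, LIN28A, IGF2BP1, IGF2BP2 and IGF2BP3 encode RNA-binding proteins of the LIN28 and IGF2BP families. The binding of IGF2BP1 to their 5 mRNAs was read from eCLIP peaks in H1299 cells. H1299 cells derive from a human non-small cell lung carcinoma. The members are the peaks that lay on the same strand within 1 of these 5 genes, taken from GENCODE release 44. They numbered 16 of 22311 peaks in cells given DMSO and 8 of 22123 peaks in cells given AVJ16, a small molecule directed against IGF2BP1, so 24 of 44434 peaks in all. Every member peak lay in the 3'UTR of LIN28B or of IGF2BP1 itself. Of all peaks, 74.6% with DMSO and 75% with AVJ16 lay in a 3'UTR, the usual place in both lists. LIN28A, IGF2BP2 and IGF2BP3 held no peak in either list. Thus 2 of the 5 genes were bound. Of all annotated protein-coding genes, expressed in these cells or not, 25.8% held a DMSO peak and 23.2% an AVJ16 peak.

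IGF2BP1 binds target mRNAs, mostly in the 3'UTR, and is known to protect many of them from decay. IGF2BP1 and IGF2BP3 are called oncofetal because they are found in fetal tissue and again in tumours, whereas IGF2BP2 persists in adults. LIN28A and LIN28B bind the precursors of the let-7 microRNAs and block their maturation. Mature let-7 in turn represses LIN28B, IGF2BP1 and other mRNAs with matching sites in the 3'UTR, so these proteins and let-7 are placed in a shared regulatory loop.

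In eCLIP, RNA crosslinked to a protein is immunoprecipitated (IP) and its reads are set against an input library of the same size range (SMInput, labelled IN). Wild-type H1299 cells received 1.5 µM AVJ16 or 0.01% DMSO for 24 h and were crosslinked at 254 nm with 400 mJ/cm2, and IGF2BP1 was precipitated with an antibody. Each treatment had 2 IP and 2 IN libraries, 8 in all. Cells of every sample came from a single thaw and were prepared in a pair of batches, and the batch of each library is not given in the sources used here. The question put to the data was where IGF2BP1 sat on these mRNAs, and how the same sites appeared after AVJ16.

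Each treatment gave 1 list with both replicates merged. A listed peak carries a log2 fold enrichment of IP over input and a −log10 p, both computed by the authors. In both lists the lowest enrichment was 3.00 on the log2 scale, or 8-fold, and −log10 p started at 3.00. Sites below either limit are not listed, whatever their level. The lists hold no value for a single replicate, no read counts and no RNA levels. Depth is therefore unknown, and no difference between treatments below has an error or a test. The study itself tested differential binding of each cluster by ANOVA on normalized reads of the samples, and measured RNA by RNA-seq. Those results were not used here. From the lists alone, a gene without binding and a gene whose RNA is scarce cannot be told apart. The study detected IGF2BP2 and IGF2BP3 protein on blots of H1299 cells, which does not tell how much of their mRNA was present.

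The sequences that matter for these genes are the let-7 seed and its matches. All 9 mature let-7 family names in RefSeq (GRCh38.p14) had the same bases 2 to 8, the seed, shown here in capitals for the let-7a and let-7g forms and for miR-98.
hsa-let-7a-5p: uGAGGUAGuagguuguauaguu
hsa-let-7g-5p: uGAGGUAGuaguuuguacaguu
hsa-miR-98-5p: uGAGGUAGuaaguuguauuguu

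The reverse complement of this seed, CUACCUC, was searched on the RNA strand of each 3'UTR. It occurred 11 times in the 5 genes, 4 times each in LIN28B and IGF2BP1 and once each in LIN28A, IGF2BP2 and IGF2BP3. The 2 LIN28B matches inside peaks, the IGF2BP1 match inside a peak and the IGF2BP1 match nearest to a peak found with AVJ16 are printed in 30 nt of RNA sequence, read 5′ to 3′ from GRCh38 (hg38), plus strand, with the match in capitals.
LIN28B, match 2, chr6:105081243-105081272: gaugauaguaaCUACCUCugaguuugacac
LIN28B, match 3, chr6:105081425-105081454: acagcaaaaggCUACCUCauaguugauaca
IGF2BP1, match 2, chr17:49053702-49053731: agugcuaguaaCUACCUCacagagccccag
IGF2BP1, match 3, chr17:49054356-49054385: aaauggauuaaCUACCUCaauccuuacagu

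LIN28B (ENSG00000187772) spans chr6:104936616-105083332 on the plus strand, and its 3'UTR of 4549 nt spans chr6:105078784-105083332. With DMSO it held 10 peaks, all in the stretch from 1735 to 2782 nt after the stop codon, and they covered 641 nt or 14.1% of the 3'UTR. With AVJ16 it held 5 peaks, from 1735 to 2696 nt, covering 369 nt or 8.11%. Upstream and downstream of these stretches the 3'UTR had no peak, and the coding region of 750 nt, the 5'UTR and the introns had none either.

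**Figure D1:**
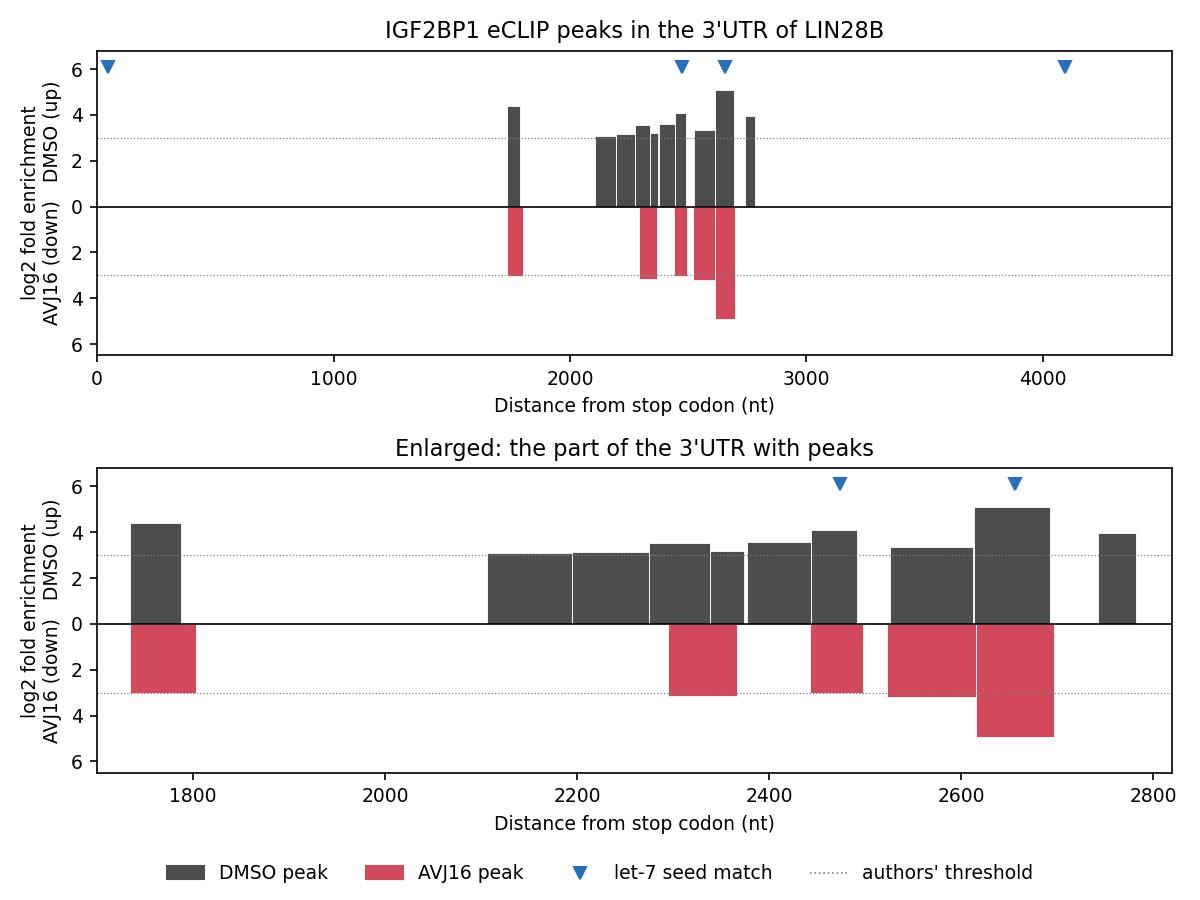
Peaks of IGF2BP1 along the 3'UTR of LIN28B. The x axis is the distance from the stop codon in nt, bars up are DMSO peaks and bars down are AVJ16 peaks, bar height is the log2 fold enrichment, dotted lines mark the authors' threshold of 3, and triangles mark let-7 seed matches. The lower panel enlarges the stretch with peaks, where 10 DMSO peaks face 5 AVJ16 peaks and the tallest bar in both directions holds a seed match.

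The strongest LIN28B peak carried match 3 in both lists. With DMSO it lay at chr6:105081397-105081475 at a log2 fold enrichment of 5.10, or 34.3-fold, its −log10 p being 22.5. It ranked 812 of all DMSO peaks by enrichment, above 96.4% of them. With AVJ16 the peak at chr6:105081399-105081479 had a log2 fold enrichment of 4.93, or 30.5-fold, a −log10 p of 15.2 and rank 945, above 95.7% of its list. By enrichment this site thus kept its place near the top of both lists, with a difference of -0.17 between log2 fold enrichments. By −log10 p it lay above 73.3% of the DMSO list and 56.4% of the AVJ16 list.

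Match 2 lay in a site whose enrichment differed more between lists. The DMSO peak at chr6:105081227-105081274 had a log2 fold enrichment of 4.09, and the AVJ16 peak at chr6:105081226-105081280 had 3.01, a difference of -1.08. The −log10 p was 16.6 and 8.29. The enrichment of the AVJ16 peak was thus just above the limit of 3, where a slightly lower value would not have been listed.

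The largest difference was at the most upstream site, 1735 nt after the stop codon. There the log2 fold enrichment was 4.41 with DMSO (chr6:105080518-105080570, −log10 p 9.26) and 3.02 with AVJ16 (chr6:105080518-105080585, −log10 p 5.38), a difference of -1.39. These had the lowest −log10 p of the LIN28B peaks in their lists. The DMSO peak held no CAU, a triplet known from IGF2BP1 binding sites, and 3 ACA.

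Between these sites, DMSO peaks abutted each other. Peaks at 2107 to 2194 nt and 2195 to 2274 nt had log2 fold enrichments of 3.10 and 3.16 and no AVJ16 partner, that is, no peak of that list overlapping them by 1 nt or more. The next peaks, at 2275 to 2338 nt and 2339 to 2373 nt, had 3.54 and 3.20 and shared a single AVJ16 partner of 3.16, giving differences of -0.38 and -0.04. The AVJ16 list thus held 1 peak where the DMSO list held 4.

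Of the remaining LIN28B peaks, that at 2377 to 2443 nt had the highest −log10 p of the gene, 27.9, with a log2 fold enrichment of 3.59. Its AVJ16 partner, the peak that holds match 2, met it over only 1 nt, so the difference of -0.57 sets neighbouring stretches side by side. The peak at 2526 to 2612 nt had 3.36 with DMSO and 3.20 with AVJ16. The most downstream peak, at 2743 to 2782 nt, had 3.97 and no partner.

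Across the gene, 7 of 10 DMSO peaks of LIN28B had a partner, and all 7 had a lower log2 fold enrichment with AVJ16. The median difference was -0.38, with a range of -1.39 to -0.04. Over all shared DMSO peaks of both lists the median was -0.061 (SD 0.556, quartiles -0.41 and 0.26), and 55.3% were lower. Among genes with at least 5 shared DMSO peaks, all were lower in 46 of 1049, or 4.39%, with LIN28B among them. Since 2 AVJ16 peaks each served as partner of 2 DMSO peaks, the 7 differences rest on 5 AVJ16 peaks, and 4 of those 5 lay between 3.01 and 3.20.

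IGF2BP1 (ENSG00000159217) spans chr17:48997385-49056145 on the plus strand, with a 3'UTR of 6701 nt at chr17:49049445-49056145, and its protein is the target of the antibody. IGF2BP1 was listed on its own mRNA with 6 peaks with DMSO and 3 with AVJ16, covering 345 nt (5.15%) and 220 nt (3.28%) of the 3'UTR. Unlike the LIN28B peaks, which lay in 1 stretch, they were spread from 2403 to 6581 nt after the stop codon. None reached a log2 fold enrichment of 4, and the DMSO values ran from 3.23 to 3.86.

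**Figure D2:**
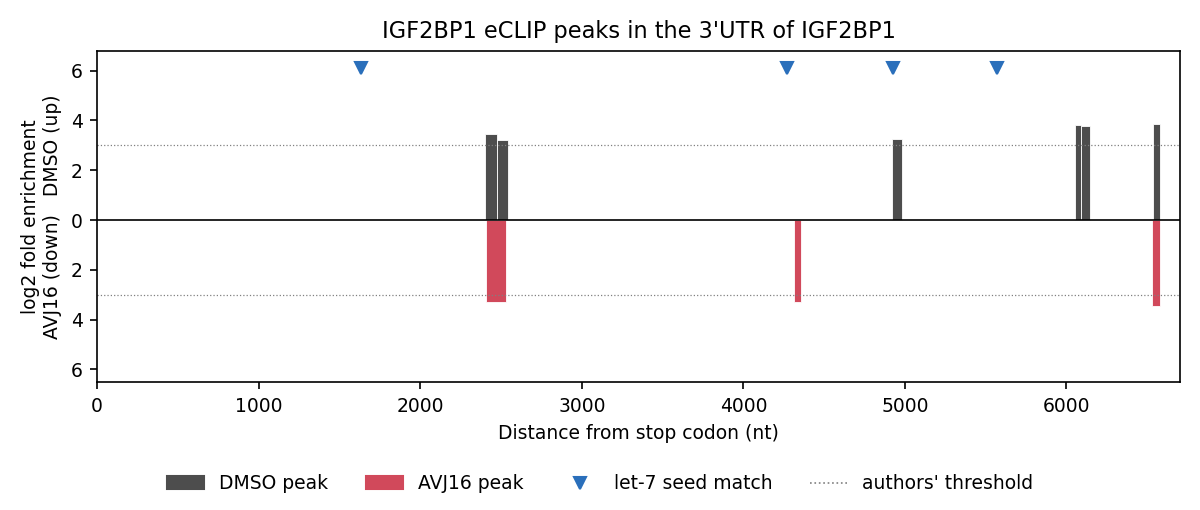
Peaks of IGF2BP1 along the 3'UTR of its own mRNA, drawn as in the map of LIN28B, with distance from the stop codon in nt on the x axis, DMSO peaks up, AVJ16 peaks down, log2 fold enrichment as bar height and let-7 seed matches as triangles. The most upstream site and the site nearest to the 3' end appear in both lists, and the others in 1 list each.

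The best supported site on the IGF2BP1 mRNA was the most upstream. It comprised a DMSO peak at chr17:49051847-49051921 and an abutting peak of 3.23 with a −log10 p of 34.4. The first had a −log10 p of 61.0, above 94.1% of the DMSO list, but its log2 fold enrichment of 3.46 was above only 37.6%. A single AVJ16 peak at chr17:49051853-49051976 overlapped both, with 3.28 and a −log10 p of 49.8. The differences were -0.18 and 0.05, so this site was listed at about the same enrichment in both treatments.

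The site nearest to the 3' end, 120 nt from it, was also in both lists. Its log2 fold enrichment was 3.86 with DMSO (chr17:49055977-49056025) and 3.47 with AVJ16 (chr17:49055974-49056024), a difference of -0.39. The −log10 p was 16.6 and 15.7. The median of the 3 IGF2BP1 differences was -0.18 (range -0.39 to 0.05), and none was beyond 0.5 in size.

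Other IGF2BP1 sites were listed once. With DMSO alone these were the abutting peaks at 6054 to 6088 nt and 6089 to 6148 nt, with log2 fold enrichments of 3.80 and 3.76, and the peak at 4919 to 4980 nt (chr17:49054363-49054424), with 3.27. The latter holds match 3, the IGF2BP1 seed match inside a peak. With AVJ16 alone a peak of 3.28 and a −log10 p of 8.85 lay at chr17:49053757-49053801, and match 2 ended 37 nt before it.

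Sequence around the peaks was compared for the triplets CAU and ACA and for GGAC, the core letters of sites where adenosine is methylated (m6A), read on the RNA strand with overlapping matches counted. To show these letters in place, stretches of 30 nt (GRCh38, plus strand) are printed with CAU in capitals. They are the LIN28B stretches with 2 CAU, the most upstream LIN28B peak, which has ACA but no CAU, and the best supported IGF2BP1 peak. The other LIN28B stretches hold 1 CAU or none, and the whole peaks at 2377 to 2443 nt and 2444 to 2491 nt hold none. Each stretch is centred on the nucleotides shared with the AVJ16 partner, or on the peak where it has none.
LIN28B, peak at 2195 to 2274 nt, chr6:105081003-105081032: uuuuCAUCAUcuuaccagacuaaacuaaga
LIN28B, peak at 2275 to 2338 nt, chr6:105081085-105081114: agaauauuaucacuauuaCAUaaCAUacuc
LIN28B, peak at 2339 to 2373 nt, chr6:105081121-105081150: aagaacuuugcucagggaaCAUacCAUgua
LIN28B, peak at 1735 to 1787 nt, chr6:105080529-105080558: uugaauuucacaacagugauugugagaauc
IGF2BP1, peak at 2403 to 2477 nt, chr17:49051872-49051901: ugcuauucuuccuaaucuauaucCAUagau

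In the DMSO peaks of LIN28B, CAU occurred 2.34 times per 100 nt, against 1.79 in the rest of that 3'UTR and 2.12 in all 3'UTR peaks of the list. ACA occurred 3.59 times per 100 nt, against 1.59 in the rest of the 3'UTR and 1.98 in all 3'UTR peaks. The LIN28B peaks were thus set apart by ACA more than by CAU, and their A content was 34.2%, against 30.3% in the rest of the 3'UTR and 26.7% in all 3'UTR peaks. GGAC was found at 0.312 per 100 nt, which is 2 matches, against 0.0768 in the rest of the 3'UTR and 0.225 in all 3'UTR peaks.

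The IGF2BP1 peaks did not share the ACA pattern. In its DMSO peaks CAU occurred 1.74 times per 100 nt and ACA 1.16, against 1.27 and 1.34 in the rest of the 3'UTR. Both were under the 2.12 and 1.98 of all 3'UTR peaks with DMSO. GGAC was found at 0.29 per 100 nt, which is 1 match, against 0.378 in the rest of the 3'UTR and 0.225 in all 3'UTR peaks. Across all 3'UTR peaks with DMSO, 72.6% held a CAU, 67.9% an ACA and 14.9% a GGAC. The densities rest on 641 nt of LIN28B peaks and 345 nt of IGF2BP1 peaks and carry no test.

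Peaks with a let-7 seed match were few in number but a larger share here than in the lists. CUACCUC lay in 3 of 16 member peaks with DMSO (18.8%) and 2 of 8 with AVJ16 (25%), against 0.613% and 0.488% of all 3'UTR peaks. Both bound genes are known let-7 targets, and the share was not tested. Of the 11 matches in the 5 genes, 3 were in DMSO peaks and 2 in AVJ16 peaks, and the other LIN28B matches, at 44 to 50 nt and 4092 to 4098 nt after the stop codon, lay 1684 nt and 1309 nt from the nearest DMSO peak.

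The members without peaks also carry the match. LIN28A (ENSG00000131914, plus strand), IGF2BP2 (ENSG00000073792, minus strand) and IGF2BP3 (ENSG00000136231, minus strand) have 1 each, in 3'UTRs of 3270, 2401 and 2153 nt. They are printed here because each has the full match, followed by the A that extends it, and lay in no peak.
LIN28A, chr1:26427352-26427381: agccuauugaaCUACCUCauuuuugccaau
IGF2BP2, chr3:185644209-185644238: cacagaagaagCUACCUCagguguuuuuac
IGF2BP3, chr7:23311784-23311813: uuuuuacucaaCUACCUCagguauucagua

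Over both genes together, 10 of 16 DMSO member peaks had an AVJ16 partner, or 62.5% (95% Wilson interval 38.6% to 81.5%, counting error only), against 66.2% of all DMSO peaks. Of the AVJ16 member peaks 7 of 8 had a DMSO partner, or 87.5% (52.9% to 97.8%), against 70.8% of all. The member shares thus lay around those of the lists, and peaks of 1 mRNA are not independent. Lower by more than 0.5 were 3 of the 10 shared member peaks, all in LIN28B, against 20.1% of all shared peaks. Higher by more than 0.5 were none, against 12.6%.

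**Figure D3:**
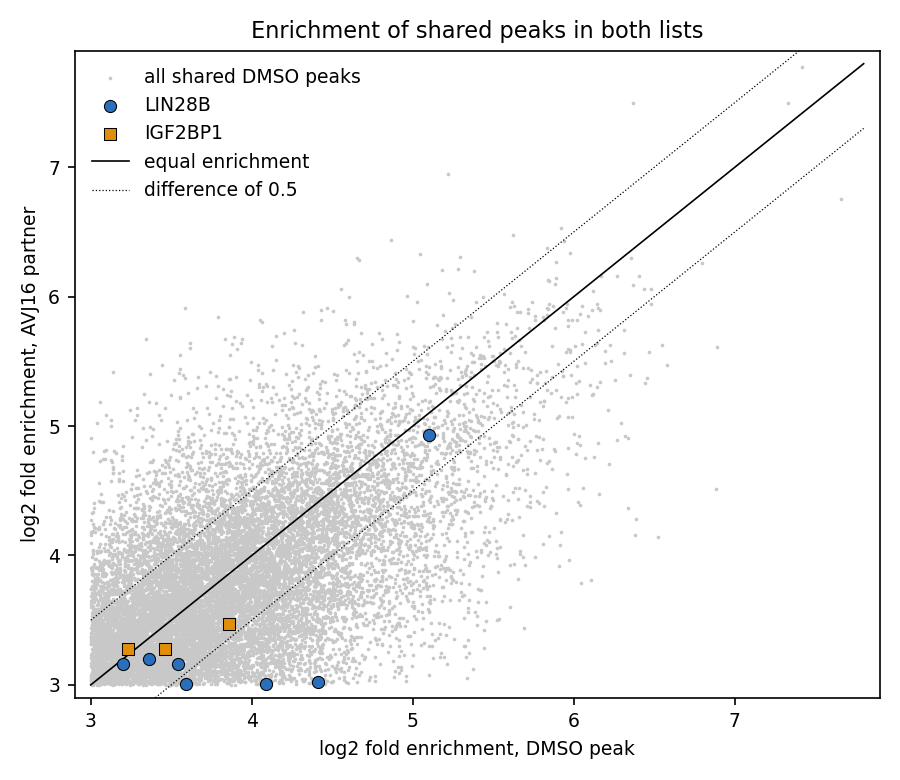
Log2 fold enrichment of each shared DMSO peak (x axis) against that of its AVJ16 partner (y axis), with all shared peaks in grey, LIN28B as circles and IGF2BP1 as squares. The solid line marks equal values and the dotted lines a difference of 0.5. The 7 LIN28B points lie under the line of equality, 6 of them between 3.01 and 3.20 with AVJ16 and 1 at 4.93.

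Whether a peak found a partner went with its height across the lists. Of all DMSO peaks with a log2 fold enrichment from 3 to 3.5, 48.8% had a partner, compared with 69.7% from 3.5 to 4, 84.8% from 4 to 5 and 96.4% above. Among member peaks these classes had 4 of 7, 3 of 6, 2 of 2 and 1 of 1, too few to show a trend. The 6 unshared member peaks with DMSO all had values under 4.

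The number of peaks was lower with AVJ16 in both bound genes, as it was in 45.4% of 5743 protein-coding genes with a peak in either list, while 36.6% had more. Among the 82 protein-coding genes with 10 DMSO peaks, as LIN28B has, the median number with AVJ16 was 10 (quartiles 8 and 12), and 11 of them, LIN28B included, or 13.4%, had 5 or fewer. Among the 278 genes with 6 DMSO peaks, as IGF2BP1 has, the median was 5 (quartiles 3 and 7), and 27.0% had 3 or fewer. The AVJ16 count of LIN28B thus lay under the lower quartile of such genes, and that of IGF2BP1 at it. These counts take abutting peaks as separate. With touching peaks joined within each list, LIN28B had 6 sites with DMSO and 4 with AVJ16, and IGF2BP1 had 4 and 3. In this count the LIN28B DMSO peaks at 2526 to 2612 nt and 2614 to 2692 nt stay apart, while their AVJ16 partners touch. Joined over both lists together, LIN28B had 5 sites, and only the last, with 1 DMSO peak, had no AVJ16 peak. Other genes were not compared in these ways.

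Other genes of the LIN28 and let-7 axis, a list of 20, were read in the same way. With DMSO 14 of the 20 had a peak and with AVJ16 11, with 177 and 188 peaks, against the 25.8% and 23.2% of all protein-coding genes. That base counts every annotated gene, expressed in these cells or not, and the list was chosen with earlier results of these data known. A larger share on the list was therefore to be foreseen and was not tested. Fewer peaks with AVJ16 were found in 8 genes and more in 6. Among 153 DMSO peaks with a partner, 20 (13.1%) had a lower value with AVJ16 by over 0.5 and 15 (9.80%) a higher, against 20.1% and 12.6% of all shared peaks, and the median difference over them was -0.05, near that of all shared peaks.

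Genes that process let-7 precursors, and some targets, were sparsely listed. DICER1, which cuts let-7 precursors, had 3 peaks with DMSO and none with AVJ16, the highest at a log2 fold enrichment of 3.55. TRIM71, a let-7 target and RNA-binding ubiquitin ligase, had 1 peak of 3.26 with DMSO alone, and CDC25A, a cell cycle phosphatase, 1 of 3.23. TUT4 and TUT7, which add uridines to precursors held by LIN28, and DIS3L2, the nuclease that then degrades them, had none, and neither did MYCN, HRAS and E2F2.

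The genes with the most peaks on the list were IGF1R, HMGA2, CDK6 and HMGA1. HMGA2, a chromatin protein, had 33 peaks with DMSO and 37 with AVJ16, and its highest log2 fold enrichment was 6.48 and 6.09, above that of LIN28B. IGF1R, a growth factor receptor, had 41 and 40 peaks, and of its 40 shared peaks 7 were higher and none lower by more than 0.5. CDK6, a cell cycle kinase, had 25 and 30 peaks, and of its 23 shared peaks 10 were lower and none higher by more than 0.5. Its median difference was -0.39, near the -0.38 of LIN28B. Of all shared peaks, 20.1% were lower and 12.6% higher by more than 0.5.

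Fewer peaks with AVJ16 were also listed for MYC, 4 and 1, and for CCND1, 7 and 3. HMGA1, another chromatin protein, went the other way in number, from 21 to 34, with a median difference of -0.18. NRAS had 18 and 19 peaks and CCND2 17 and 18, while ARID3B, BACH1 and HOXA9 had 1 to 3 in each list. On this list a let-7 seed match lay in 5 of 177 DMSO peaks (2.82%), 2 of them in HMGA2 and 1 each in HMGA1, NRAS and BACH1, and in 4 of 188 AVJ16 peaks (2.13%). Of all 3'UTR peaks, 0.613% with DMSO and 0.488% with AVJ16 held a match. The list counts take peaks of any region. Let-7 targets were put on the list by choice, and the share was not tested.

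**Figure D4:**
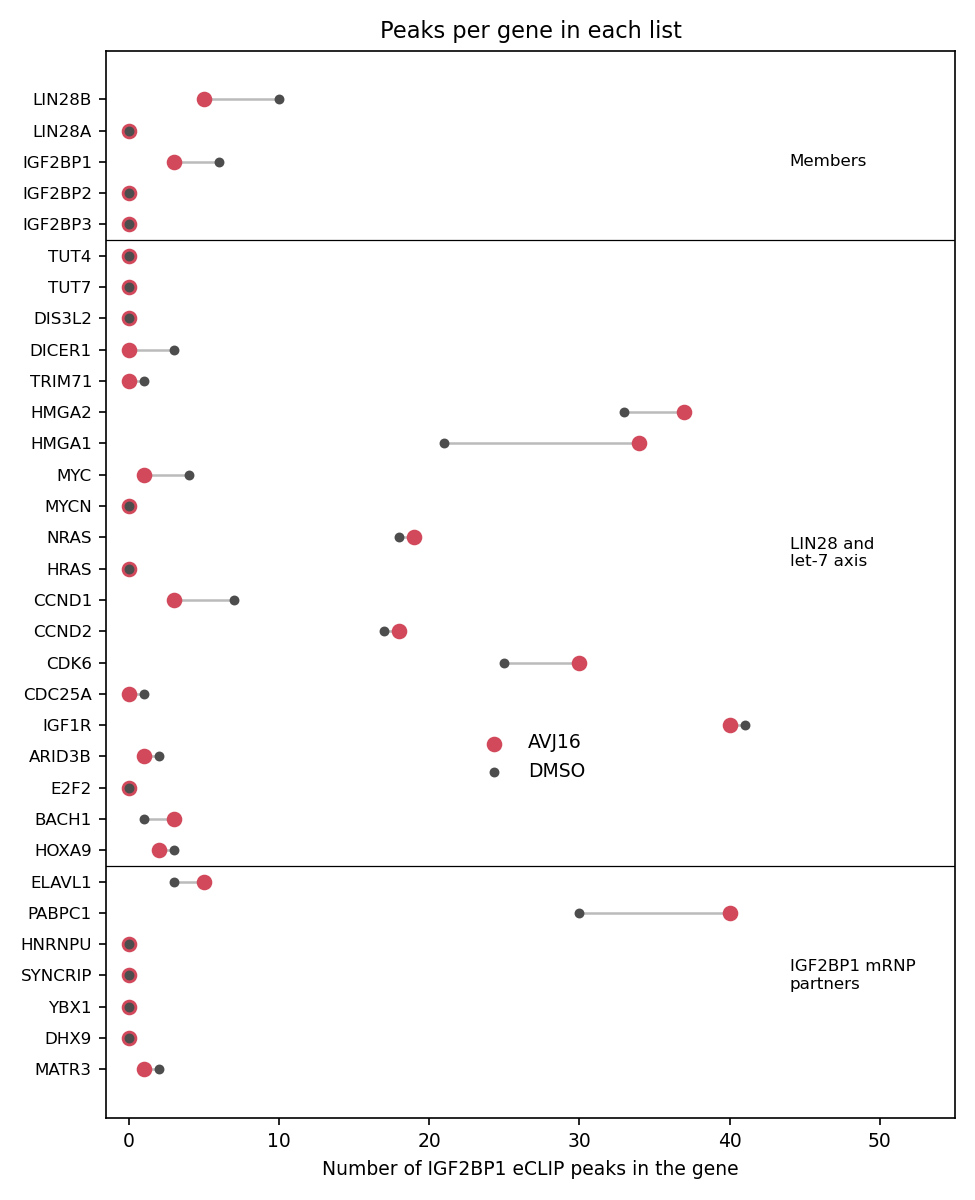
Number of IGF2BP1 peaks per gene (x axis) with DMSO (small dark points) and AVJ16 (large red points) for the 5 members, the 20 genes of the LIN28 and let-7 axis and 7 partners of IGF2BP1. LIN28B moves from 10 to 5 and IGF2BP1 from 6 to 3, while HMGA1 and PABPC1 move the other way. Abutting peaks count separately, and with touching peaks joined within each list LIN28B has 6 and 4 sites and IGF2BP1 4 and 3. Joined over both lists together, LIN28B has 5 sites, of which only the last has no AVJ16 peak.

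Among 7 genes whose proteins share ribonucleoprotein complexes with IGF2BP1, 3 had peaks in both lists, and HNRNPU, SYNCRIP, YBX1 and DHX9 had none. Of all annotated protein-coding genes, expressed in these cells or not, 25.8% held a DMSO peak and 23.2% an AVJ16 peak. The partners, too, were chosen with earlier results of these data known, and their share was not tested. PABPC1, the cytoplasmic poly(A) binding protein, had 30 peaks with DMSO and 40 with AVJ16, and all 30 DMSO peaks lay in its coding region. ELAVL1 had 3 and 5 and MATR3 2 and 1. The median difference over the 32 shared peaks of the list was 0.01, but 30 of these were in PABPC1. ELAVL1 and MATR3 had 1 shared peak each, with differences of 0.04 and -0.8.

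The genes most like LIN28B in number and median enrichment of peaks were PIAS1 and DR1, among 1227 protein-coding genes with at least 5 peaks in both lists. The measure was the Euclidean distance over 4 values, the median log2 fold enrichment and the log2 number of peaks in each list. PIAS1 (distance 0.286) had 9 and 5 peaks with medians of 3.32 and 3.13, and DR1 (distance 0.294) had 9 and 5 with 3.31 and 3.20. LIN28B had 10 and 5 with medians of 3.56 and 3.16. IGF2BP1 had too few AVJ16 peaks for this comparison.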

How the data were processed

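Binding of IGF2BP1 was measured by eCLIP in H1299 cells given DMSO or AVJ16, with 2 IP and 2 IN libraries per treatment, grouped as labelled. The authors trimmed reads with cutadapt, discarded repeat reads, mapped with STAR, removed PCR duplicates, called peaks with CLIPper and kept those enriched over SMInput. The deposited lists merge both replicates by IDR, per the file names. The deposited log2 fold enrichment of a peak is that of IP over SMInput, and the deposited −log10 p stops at 400. Depth is unknown from the lists. The study's Results give a limit for enrichment of 3 on the log2 scale, where the lists start. Its Methods instead give a fold enrichment of at least 3.

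The labels name hg38, and all peaks lay within its chromosome lengths. Genes and 3'UTRs were taken from GENCODE release 44 (MANE Select transcripts) and microRNAs from RefSeq. The study's Methods name an older GENCODE release. The partner of a DMSO peak was the same-strand AVJ16 peak with the largest overlap, of 1 nt or more. AVJ16 minus DMSO log2 fold enrichment was called lower or higher beyond 0.5. The study combined this limit with an ANOVA p-value, which was not applied here, so these calls are not its differentially bound peaks. Each list was normalized to its own inputs, and no test was made, since no value per replicate was at hand. Python 3.11.15, numpy 2.4.6, pandas 2.3.3 and matplotlib 3.10.9 were used. Pairing was tested on simulated peaks with known answers. Joining of peaks, the bounds of a 3'UTR and motif search were each checked on a small made-up case.

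The members and gene lists were chosen with earlier results of these data known. The genes named are the 5 members, 20 genes of the LIN28 and let-7 axis (2 others are not reported here), 7 IGF2BP1 partners and, for a member with at least 5 peaks in both lists, the 2 nearest genes.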

Additional observations from a re-analysis of the deposited data

How the results depend on the processing

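The number of DMSO member peaks was 16 as listed, 10 with touching peaks joined within the list and 3 with enrichment limited to 4 or more (log2). That of AVJ16 peaks was 8, 7 and 1. A −log10 p of at least 5, or exons alone, left both counts at 16 and 8. A partner was found for 62.5% of DMSO member peaks, and for 87.5% when AVJ16 peaks were the base. An overlap of 50% of both peaks gave 43.8% and AVJ16 peaks widened by 25 nt gave 68.8%. The median difference of LIN28B was -0.38 and became -0.48 over sites joined across both lists together. That of IGF2BP1 was -0.18 and became -0.28 with the 50% overlap, with pairs made from AVJ16 peaks and with each peak in 1 pair. Those 3 settings left 2 of the 3 peaks lower by more than 0.5, a limit of 1 was passed by 2 peaks, and no setting gave a peak higher by its limit. Seed matches inside DMSO peaks numbered 3, and 2 as CUACCUCA. LIN28A, IGF2BP2 and IGF2BP3 had no shared peak and hence no median. No paired analysis was possible because each list merges its replicates, and for the same reason no replicate could be left out. Peaks near the enrichment limit of 3 can drop from a list with a small change, and the depth that would bound this is unknown here.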
